A study of Mus musculus with 21 samples.

Results

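Pro-remodeling fibro-adipogenic progenitors (FAPs) were examined in tibialis anterior muscle across the first week after notexin injury. They were chosen as every cell that carried the authors' label "FAPs (Pro-remodeling)" after integration with Harmony, and numbered 6580 of the 87822 cells in 21 samples. Every sample held some, between 21 and 1398 cells with a median of 190. The other FAPs in the same samples were 3360 adipogenic and 2210 stem FAPs.

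All samples came from female C57Bl/6J mice aged 20 months with no genetic modification named, 1 mouse per sample. The groups were 4 uninjured mice, and mice taken after notexin, a snake-venom phospholipase that destroys myofibers, at 1 (4 mice), 2 (3), 3.5 (4), 5 (3) and 7 (3) days post-injury (dpi). By the study's methods each replicate was an independent experiment on 1 animal, mice were assigned to time points at random, and samples of several time points could share a collection day, with at most 4 samples a day. Which samples shared a day is not given in the sources used here, so no comparison was made within days. Both muscles of an injured mouse were injected, and the methods name no group that received an injection without notexin. Cells of the dissociated whole muscle were profiled with 10x Genomics v3 chemistry, which counts transcripts by unique molecular identifiers (UMIs), and myofibers themselves pass poorly through such a preparation.

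FAPs are mesenchymal cells that lie between myofibers and carry the receptor PDGFRα. After injury they expand, lay down and reshape extracellular matrix and secrete factors that act on muscle stem cells and immune cells, and most of the surplus is later cleared. They can also give rise to adipocytes and fibroblasts, and persist as fat or scar where repair fails. The label at hand is tied to Pdgfra, the receptor gene, to Tnfaip6, which encodes a hyaluronan-binding protein that limits inflammation, and to Il33, which encodes an alarmin that acts on regulatory T cells in muscle. The tables used here give each cell's label, UMIs, genes detected and the percent of UMIs from sets of genes, but no value for a single gene, so the label could not be set against these markers.

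Across the samples the tables held between 5602464 and 70730171 UMIs and between 974 and 10556 cells. Mean reads per cell ranged from 15035 to 117596 and sequencing saturation from 28.1 to 87.4%, with uninjured samples (15835 to 117596 reads) spanning nearly the same range as injured ones. The part of called barcodes left after the authors' filters was 25.3 to 49.5% in uninjured and 54.3 to 83.2% in injured samples, without overlap. Reads in cells were 44.2 to 56.3% in uninjured samples, and 66.5 to 94.8% in injured ones other than 1 dpi replicate B (47.7%). Whether these differences between the groups bear on the readouts below was not tested. Beyond this, a pair of libraries stood out. Uninjured replicate B had 25.3% of its called barcodes left after the authors' filters, the lowest value of the 21 samples, and 40.4% of its cells belonged to the 3 FAP types, against 10.4 to 11.6% in the other uninjured mice. The library labelled 2 dpi replicate C held only 21 pro-remodeling FAPs, the fewest of any sample, and its cells resembled those of uninjured mice in several readouts given below. Values without these libraries are given beside the results that they move most. Among the 210 pairs of libraries, at most 0.418% of cell barcodes were shared, and 6 pairs shared a barcode between pro-remodeling FAPs, 1 barcode each.

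The first question was how the pro-remodeling FAPs rose and fell after injury. Expressed as a share of all cells, they were 5.87, 19.0, 5.33 and 4.83% in the 4 uninjured mice. At 1 dpi the shares were 2.51, 2.67, 5.85 and 4.27%, and at 2 dpi they were 3.35, 1.91 and 0.660%. All 3 mice at 2 dpi therefore lay below every uninjured mouse. The shares were 6.23, 5.36, 3.94 and 4.88% at 3.5 dpi. They were 5.45, 16.5 and 6.59% at 5 dpi, and 16.1, 16.1 and 8.35% at 7 dpi. The 3 mice at 7 dpi lay above all 7 mice at 1 and 2 dpi. The widest exact 95% interval of these shares (Clopper-Pearson, counting error only) ran from 3.57 to 6.37% in uninjured replicate D.

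Over the 6 time points the share of all cells changed (adjusted p = 0.0199, permutation test of F), as did that of 18 of the 23 cell types in the tables (78.3%). From 3.03% ± 1.68 (SD, n = 7) at 1 and 2 dpi it rose to 11.5% ± 5.25 (SD, n = 6) at 5 and 7 dpi, a difference of 8.48 percentage points or 3.80-fold (adjusted p = 0.00447, exact permutation test, 1716 assignments). A rise of this kind was called in 7 of the 23 types (30.4%). Adipogenic and stem FAPs were among them with an adjusted p of 0.00745 each in the same exact permutation test, from 1.49 to 5.96% and from 1.07 to 3.33% of all cells. Tenocytes, the fibroblasts of tendon, went from 1.08 to 1.44% without passing it (adjusted p = 0.471, exact permutation test). Without 2 dpi replicate C the rise was 8.08 points (adjusted p = 0.0142, exact permutation test). The time course kept its call without uninjured replicate B (adjusted p = 0.00667) and without 2 dpi replicate C (adjusted p = 0.0496, both permutation tests), but lost it on untransformed shares (adjusted p = 0.0532), and the rise lost its call as a centred log ratio (adjusted p = 0.0573, exact permutation test).

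A share of all cells also moves with the immune cells that enter the muscle. Non-immune cells made up 97.3% ± 0.694 (SD, n = 4) of labelled cells in uninjured mice, 25.3% ± 11.5 (SD, n = 3) at 2 dpi and 71.9% ± 3.06 (SD, n = 3) at 7 dpi. Among non-immune cells alone, pro-remodeling FAPs were 6.02, 19.8, 5.45 and 4.95% in uninjured mice and 23.4, 19.5, 22.3 and 23.7% at 3.5 dpi. The 4 mice at 3.5 dpi lay close together, above 3 uninjured mice and on either side of uninjured replicate B. The other time points were spread widely, from 4.51 to 26.2% at 1 dpi, from 1.80 to 21.3% at 2 dpi, from 11.4 to 33.8% at 5 dpi and from 12.1 to 23.5% at 7 dpi. Neither the time course (adjusted p = 0.276, permutation test of F, against 30.8% of 13 non-immune types called) nor the step from 13.1% ± 8.78 (SD, n = 7) to 20.8% ± 8.30 (SD, n = 6) between the early and late days (adjusted p = 0.234, exact permutation test, 7.69% called) passed the threshold. With this denominator the means at 1 and 2 dpi, 14.6% ± 9.16 (SD, n = 4) and 11.2% ± 9.79 (SD, n = 3), were not below the uninjured mean of 9.05% ± 7.17 (SD, n = 4), which was 5.47% ± 0.533 (SD, n = 3) without replicate B. Without uninjured replicate B the time course among non-immune cells gave an adjusted p of 0.122 (permutation test).

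**Figure D1:**
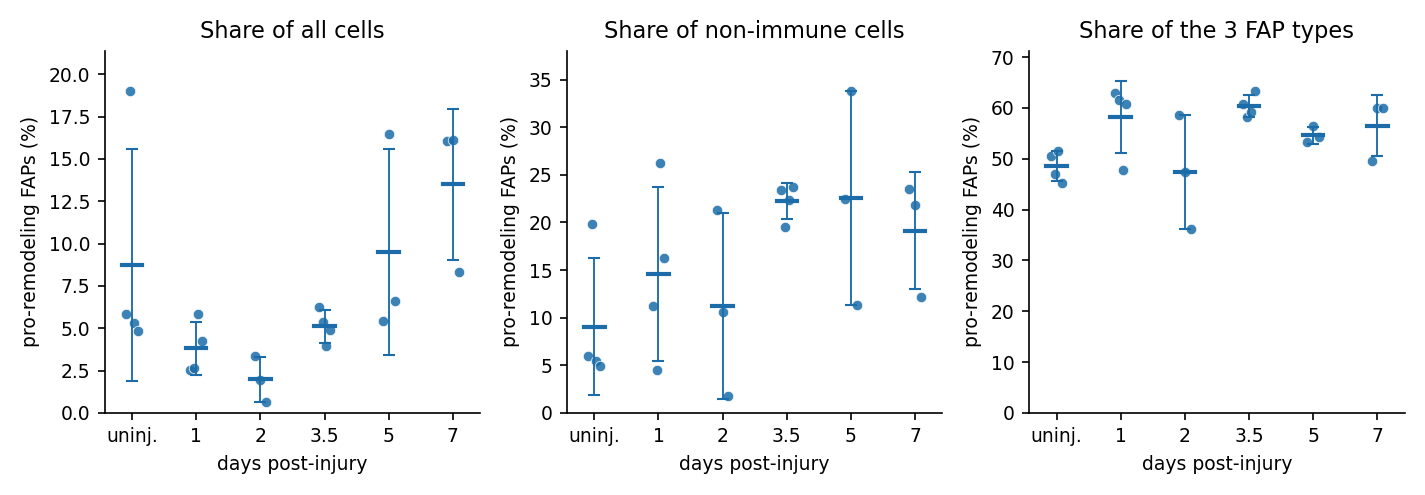
Pro-remodeling FAPs in each mouse (points) as a percent of all cells, of non-immune cells and of the 3 FAP types, by days post-injury, with the mean (bar) and SD (whiskers) of each group. The mean share of all cells was lowest at 2 dpi (mice from 0.660 to 3.35%) and highest at 7 dpi (8.35 to 16.1%), although uninjured replicate B (19.0%) and 5 dpi replicate B (16.5%) exceeded every mouse at 7 dpi, whereas the share of the 3 FAP types lay between 36.2 and 63.3% in every mouse.

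Within the FAPs, the pro-remodeling type was the largest in most mice. It made up 50.6, 47.0, 51.4 and 45.2% of the 3 FAP types in uninjured mice. The shares were 62.9, 61.5, 47.7 and 60.7% at 1 dpi and 58.6, 47.3 and 36.2% at 2 dpi. Replicate C stood below the other 3 mice at 1 dpi, and replicate C at 2 dpi was the lowest of all 21. The shares were 60.7, 58.3, 59.2 and 63.3% at 3.5 dpi. They were 53.2, 56.5 and 54.2% at 5 dpi and 49.6, 59.9 and 60.0% at 7 dpi. The mice at 3.5 and 5 dpi lay above all uninjured mice, and those at the other times overlapped with them. With few FAPs in some mice the intervals were wide, the widest from 47.0 to 74.7% in 1 dpi replicate B.

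The composition did not pass the test over the 6 time points (adjusted p = 0.0757, permutation test of F), and 1 of the 3 FAP types did (33.3%), the stem FAPs (adjusted p = 0.0236). It passed without 1 dpi replicate C (adjusted p = 0.0183) or without 2 dpi replicate A (adjusted p = 0.0115, both permutation tests). The early mean of 53.6% ± 10.0 (SD, n = 7) and the late mean of 55.6% ± 4.07 (SD, n = 6) differed by 1.99 points (adjusted p = 0.814, exact permutation test), and by -0.904 points without 2 dpi replicate C. The numbers of pro-remodeling per adipogenic FAP averaged 1.87 ± 0.182 (SD, n = 4) in uninjured mice, 2.74 ± 0.965 (SD, n = 4) at 1 dpi and 2.06 ± 0.420 (SD, n = 3) at 7 dpi.

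None of the 15 comparisons of a single time point with the uninjured mice, 5 for each denominator, passed the threshold after adjustment over those 5 (lowest adjusted p = 0.143, exact permutation tests). The only one with an unadjusted p under 0.05 was the share of the 3 FAP types at 3.5 dpi, at 60.4% ± 2.21 (SD, n = 4) against 48.6% ± 2.94 (SD, n = 4), with p = 0.0286 in an exact permutation test, the smallest value that this design allows. Over all 17 injured against the 4 uninjured mice, the share of the 3 FAP types was 55.9 against 48.6% (adjusted p = 0.0983) and the share of all cells was 6.51 against 8.76% (adjusted p = 0.413, both exact permutation tests). Without uninjured replicate B the direction of the latter turned, to 6.51 against 5.34% ± 0.521 (SD, n = 3) (adjusted p = 0.871, exact permutation test). The share of non-immune cells was 18.0% in injured and 9.05% in uninjured mice (adjusted p = 0.0983, exact permutation test). Without that replicate the uninjured mean was 5.47%, and the difference passed (adjusted p = 0.0474, exact permutation test, 1140 assignments). The share of the 3 FAP types without it was 55.9 against 49.1%, farther from the threshold (adjusted p = 0.201, exact permutation test).

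After injury, pro-remodeling FAPs supplied a larger part of the UMIs than of the cells. Their part of all UMIs of a sample was 9.66% ± 3.75 (SD, n = 4) at 1 dpi, when they were 3.83% ± 1.57 (SD, n = 4) of cells. At 7 dpi it was 22.3% ± 5.82 (SD, n = 3), and in 5 dpi replicate B, the sample with the most, it was 28.6%. In uninjured mice the part of UMIs, 9.23% ± 5.41 (SD, n = 4), was near the share of cells.

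The median number of UMIs in a pro-remodeling FAP was 6726, 4092, 5029 and 8028 in the 4 uninjured mice. It was 29297, 10642, 21025 and 26027 at 1 dpi, and 11332, 15685 and 5800 at 2 dpi. Thus every mouse at 1 dpi lay above every uninjured mouse, while 2 dpi replicate C lay among the uninjured. The medians were 22362, 23926, 18790 and 20523 at 3.5 dpi. They were 16068, 11053 and 20213 at 5 dpi and 9713, 14174 and 15051 at 7 dpi. Hence 16 of the 17 injured mice exceeded the highest uninjured mouse. The mean of the medians was 17158 ± 6384 (SD, n = 17) in injured and 5969 ± 1753 (SD, n = 4) in uninjured mice, which is 2.76-fold by geometric means (adjusted p = 0.00184, exact permutation test, 5985 assignments). Detected genes rose with them, from 2145 ± 485 (SD, n = 4) to 4181 ± 792 (SD, n = 17) (adjusted p = 0.00184, exact permutation test). Of the 11 readouts per cell, 8 (72.7%) differed between injured and uninjured mice and all 11 (100%) changed over the 6 time points at an adjusted p of at most 0.013 (permutation tests of F), also without uninjured replicate B and without 2 dpi replicate C. With means over cells in place of medians 10 changed, bidirectional promoter lncRNAs being lost (adjusted p = 0.0759), and among cells with 5000 to 20000 UMIs 8 changed, these, antisense RNAs and lincRNAs being lost (adjusted p = 0.360, 0.488 and 0.123, all permutation tests). This window did not match depth, as median UMIs within it were 6872 ± 1249 (SD, n = 4) in uninjured mice and 15226 ± 645 (SD, n = 4) at 3.5 dpi. In the 15 other cell types with enough cells for the test over the 6 time points, 64 of 165 readouts (38.8%) changed and the number of UMIs changed in 5 types. These were adipogenic FAPs (adjusted p = 0.00044), stem FAPs (adjusted p = 0.000308, both permutation tests of F), tenocytes, muscle stem cells and type IIx myonuclei. From uninjured mice to 1 dpi, mean UMIs went from 5750 to 13356 in adipogenic and from 7865 to 26407 in stem FAPs. The rise in UMIs was thus not particular to pro-remodeling FAPs.

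More genes are detected in cells with more UMIs, so genes were also read at 5000 UMIs from a line fitted to each mouse's cells on log scales. This gave 1917 ± 71.8 (SD, n = 4) genes in uninjured and 2106 ± 88.3 (SD, n = 17) in injured mice, a 1.10-fold difference (adjusted p = 0.0023, exact permutation test). Read at 10000 UMIs, the time course of this value no longer passed (adjusted p = 0.277, permutation test of F). In every injured mouse, and in uninjured replicates A and D, 5000 UMIs lay below the lower quartile of the cells. That quartile was 5095 in uninjured replicate A and 16695 in 3.5 dpi replicate A. In most injured mice the value was therefore read from the thinly filled low end of the line. Whether the shape of the line bears on the difference was not tested.

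The same UMIs were compared with those of capillary endothelial cells, the most numerous cells of uninjured muscle, caught in the same library. Pro-remodeling FAPs held 1.57, 1.47, 1.96 and 2.55 times the UMIs of capillary cells in the 4 uninjured mice. At 1 dpi the ratios were 10.8, 3.96, 4.004 and 7.25, and at 2 dpi 4.68, 4.56 and 2.52. At 3.5 dpi they were 8.18, 6.64, 6.04 and 4.35. At 5 dpi the ratios were 3.74, 3.69 and 5.71, and by 7 dpi they were 2.33, 3.44 and 3.82. All mice at 1, 3.5 and 5 dpi thus exceeded all uninjured mice within their own libraries. Replicate C at 2 dpi and replicate A at 7 dpi did not, as both lay below uninjured replicate D. The ratio changed over time (adjusted p = 0.0027, permutation test of F), and 9 of the 11 differences to capillary cells did (81.8%).

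Against adipogenic FAPs the ratio was 0.980, 1.04, 0.959 and 1.16 in uninjured mice, near equality. It was 2.85, 1.02, 1.57 and 1.35 at 1 dpi, and 1.44, 2.57 and 1.10 at 2 dpi. At 3.5 dpi it was 0.983, 1.06, 1.17 and 1.19, close to the uninjured range. It was 1.20, 1.25 and 1.97 at 5 dpi and 1.52, 1.57 and 1.49 at 7 dpi. Although pro-remodeling FAPs held more UMIs than adipogenic FAPs in 18 of the 21 mice, the time course of the ratio did not pass (adjusted p = 0.283, permutation test of F). Against stem FAPs the ratio went from 0.726, 0.729, 0.828 and 0.764 in uninjured mice to 1.71, 1.80 and 1.95 at 5 dpi and 1.27, 1.56 and 2.42 at 7 dpi. Thus uninjured pro-remodeling FAPs held fewer UMIs than stem FAPs in all 4 mice, and more in all 6 mice at 5 and 7 dpi. This ratio changed over time in the 19 mice with at least 10 cells of both types (adjusted p = 0.00044, permutation test of F), as did 7 of the 11 differences to stem FAPs (63.6%). The levels of the cell types themselves are given without a test, because the labels were made from the same transcripts.

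**Figure D2:**
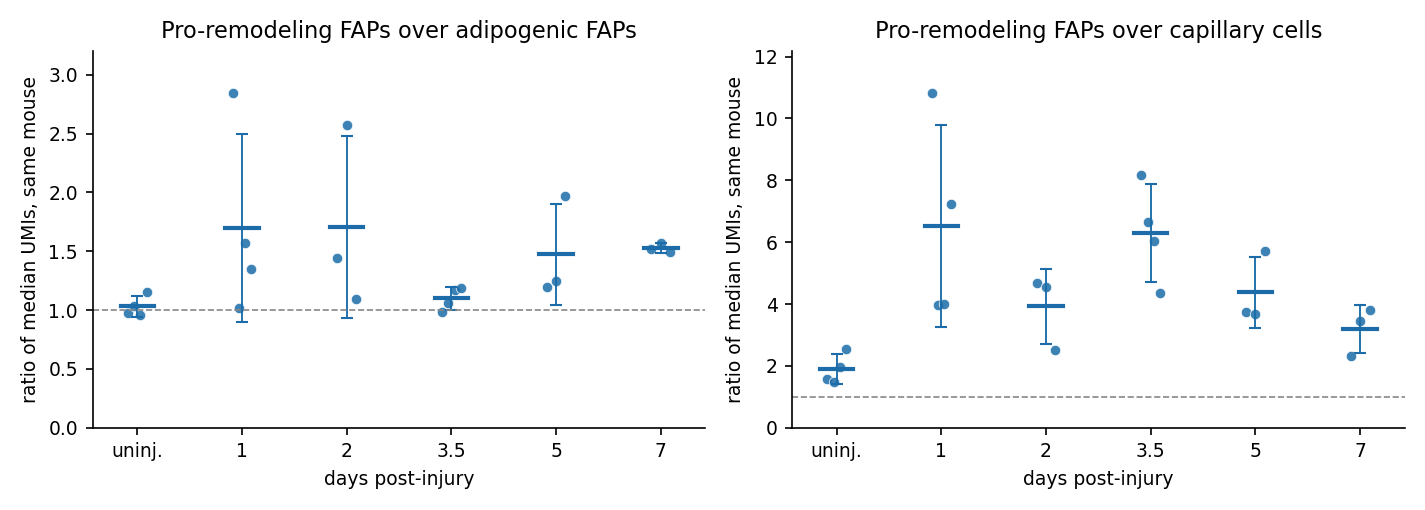
Ratio of the median UMIs of pro-remodeling FAPs to those of adipogenic FAPs (left) and capillary endothelial cells (right) in the same mouse, by days post-injury. Points are mice, bars and whiskers are the mean and SD, and the dashed line marks equality. Over capillary cells the ratio was 1.47 to 2.55 in uninjured mice and 3.96 to 10.8 at 1 dpi.

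Heat-shock genes, which encode chaperones that refold damaged proteins, peaked at 1 dpi. They made up 0.762, 0.805, 0.776 and 0.891% of the UMIs of the median pro-remodeling FAP in uninjured mice. At 1 dpi the values were 1.42, 1.25, 1.23 and 1.38%, and at 2 dpi 1.08, 0.995 and 0.855%. No mouse at 1 dpi overlapped with any mouse at another time. At 3.5 dpi the values were 0.706, 0.778, 0.712 and 0.788%. They were 0.771, 0.668 and 0.598% at 5 dpi and 0.796, 0.752 and 0.629% at 7 dpi. The mean at 1 dpi was 1.63 times that of uninjured mice and that at 7 dpi was 0.898 times (adjusted p = 0.00011 over the 6 time points, permutation test of F). The peak was not particular to this type. From uninjured mice to 1 dpi the mean also went from 0.560 to 0.959% in adipogenic FAPs, from 0.632 to 1.32% in stem FAPs and from 0.626 to 1.22% in capillary cells, and 1 dpi was the highest time in each. From 1 and 2 dpi to 5 and 7 dpi the value fell from 1.17% ± 0.205 (SD, n = 7) to 0.702% ± 0.0819 (SD, n = 6) (adjusted p = 0.0128, exact permutation test, 27.3% of readouts called).

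Heat-shock genes were also the only readout of 11 (9.09%) whose difference between pro-remodeling and adipogenic FAPs of the same mouse changed over time (adjusted p = 0.00583, permutation test of F). The difference was 0.249, 0.211, 0.259 and 0.274 percentage points in uninjured mice. At 1 dpi it was 0.408, 0.553, 0.306 and 0.177 points, and at 2 dpi it was 0.356, 0.175 and 0.274 points. From 3.5 dpi on it was never above 0.134 points in any of the 10 mice, and all of these lay below all 11 mice of the earlier groups. Between uninjured mice and 3.5 dpi the heat-shock percent of adipogenic FAPs went from 0.560 ± 0.0530 (SD, n = 4) to 0.685 ± 0.0396 (SD, n = 4) and that of pro-remodeling FAPs from 0.808 ± 0.0576 (SD, n = 4) to 0.746 ± 0.0431 (SD, n = 4). Restricted to cells with 5000 to 20000 UMIs the call held (adjusted p = 0.039, permutation test), but it was lost in injured mice alone when both types were limited to cells that BBKNN labelled alike (adjusted p = 0.0672, 12 mice, permutation test). Leaving out 1 mouse at a time, it held in all 21 cases (adjusted p between 0.00011 and 0.0172, permutation tests). The heat-shock difference to stem FAPs did not pass over time (adjusted p = 0.182, permutation test of F). Pro-remodeling FAPs were higher than stem FAPs in 15 and lower in 4 of 19 mice. That to capillary cells passed (adjusted p = 0.00275, permutation test of F), with pro-remodeling FAPs higher in 8 and lower in 13 of 21 mice.

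Genes of ribosomal proteins, the components of the translation machinery, rose early and then declined. Their percent of UMIs was 8.03, 8.55, 7.82 and 9.84 in uninjured mice. It was 20.5, 15.4, 17.3 and 18.0 at 1 dpi, and 14.6, 15.3 and 10.9 at 2 dpi. All mice of both early groups exceeded all uninjured mice, with 2 dpi replicate C the nearest to them. The values were 15.6, 15.5, 13.8 and 15.2 at 3.5 dpi. They were 11.2, 11.4 and 11.9 at 5 dpi and 9.24, 10.7 and 9.52 at 7 dpi, where 2 of the 3 mice were within the uninjured range. The mean at 1 dpi was 2.08 times the uninjured mean (adjusted p = 0.00011 over time, permutation test of F), and the fall from 16.0% ± 3.03 (SD, n = 7) at 1 and 2 dpi to 10.7% ± 1.07 (SD, n = 6) at 5 and 7 dpi passed as well (adjusted p = 0.0192, exact permutation test). Among cells with 5000 to 20000 UMIs it was 8.96% ± 0.811 (SD, n = 4) in uninjured mice and 14.1% ± 0.945 (SD, n = 4) at 3.5 dpi (adjusted p = 0.000385 over time, permutation test of F). Median UMIs in this window still differed between these groups, at 6872 in uninjured mice and 15226 at 3.5 dpi. In 19 of 21 mice the percent was lower in pro-remodeling than in adipogenic FAPs.

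Long intergenic noncoding RNAs (lincRNAs) ran the other way. Their percent of UMIs was 2.91, 2.34, 2.78 and 3.25 in uninjured mice. It was 0.940, 1.16, 1.09 and 0.847 at 1 dpi and 0.971, 0.730 and 3.44 at 2 dpi. The value of 2 dpi replicate C was the highest of all 21 mice, while the other 2 at that time were among the lowest. The values were 1.30, 1.00, 1.30 and 1.13 at 3.5 dpi. They were 1.58, 1.56 and 2.08 at 5 dpi and 1.97, 2.15 and 2.65 at 7 dpi. The time course passed with this mouse (adjusted p = 0.0121) and without it (adjusted p = 3.67e-05, both permutation tests of F), and 15 of 17 injured mice lay below the lowest uninjured mouse. Among cells of 5000 to 20000 UMIs it did not pass (adjusted p = 0.123, permutation test). The other FAPs shared the early fall. Between uninjured mice and 1 dpi the lincRNA mean went from 2.72 to 1.27% in adipogenic and from 2.02 to 0.733% in stem FAPs. Capillary cells went from 1.72 to 1.56%.

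Mitochondrial genes made up 11.4% ± 4.80 (SD, n = 4) of UMIs in uninjured and 4.79% ± 1.24 (SD, n = 17) in injured mice (adjusted p = 0.00184, exact permutation test). The uninjured mice ranged from 6.17 to 17.6%, with the highest value in replicate B. The mitochondrial mean was also lower at 1 dpi than in uninjured mice in adipogenic FAPs (5.38 against 12.1%), stem FAPs (3.68 against 10.2%) and capillary cells (6.75 against 17.8%). Protein-coding genes were higher after injury, at 92.7% ± 1.80 (SD, n = 17) against 89.1% ± 0.427 (SD, n = 4) (adjusted p = 0.0029, exact permutation test). Transcription factor genes were at 4.48% ± 0.448 (SD, n = 4) in uninjured mice, 3.41% ± 0.0574 (SD, n = 4) at 1 dpi and 4.71% ± 0.451 (SD, n = 3) at 7 dpi, and their rise from the early to the late days passed (adjusted p = 0.0363, exact permutation test). Bidirectional promoter lncRNAs fell from 0.0246% ± 0.00398 (SD, n = 4) to 0.0175% ± 0.00504 (SD, n = 17) (adjusted p = 0.0218, exact permutation test). Antisense RNAs were at 0.105% ± 0.0124 (SD, n = 4) in uninjured and 0.0847% ± 0.0195 (SD, n = 17) in injured mice, which did not pass this comparison (adjusted p = 0.0731, exact permutation test).

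**Figure D3:**
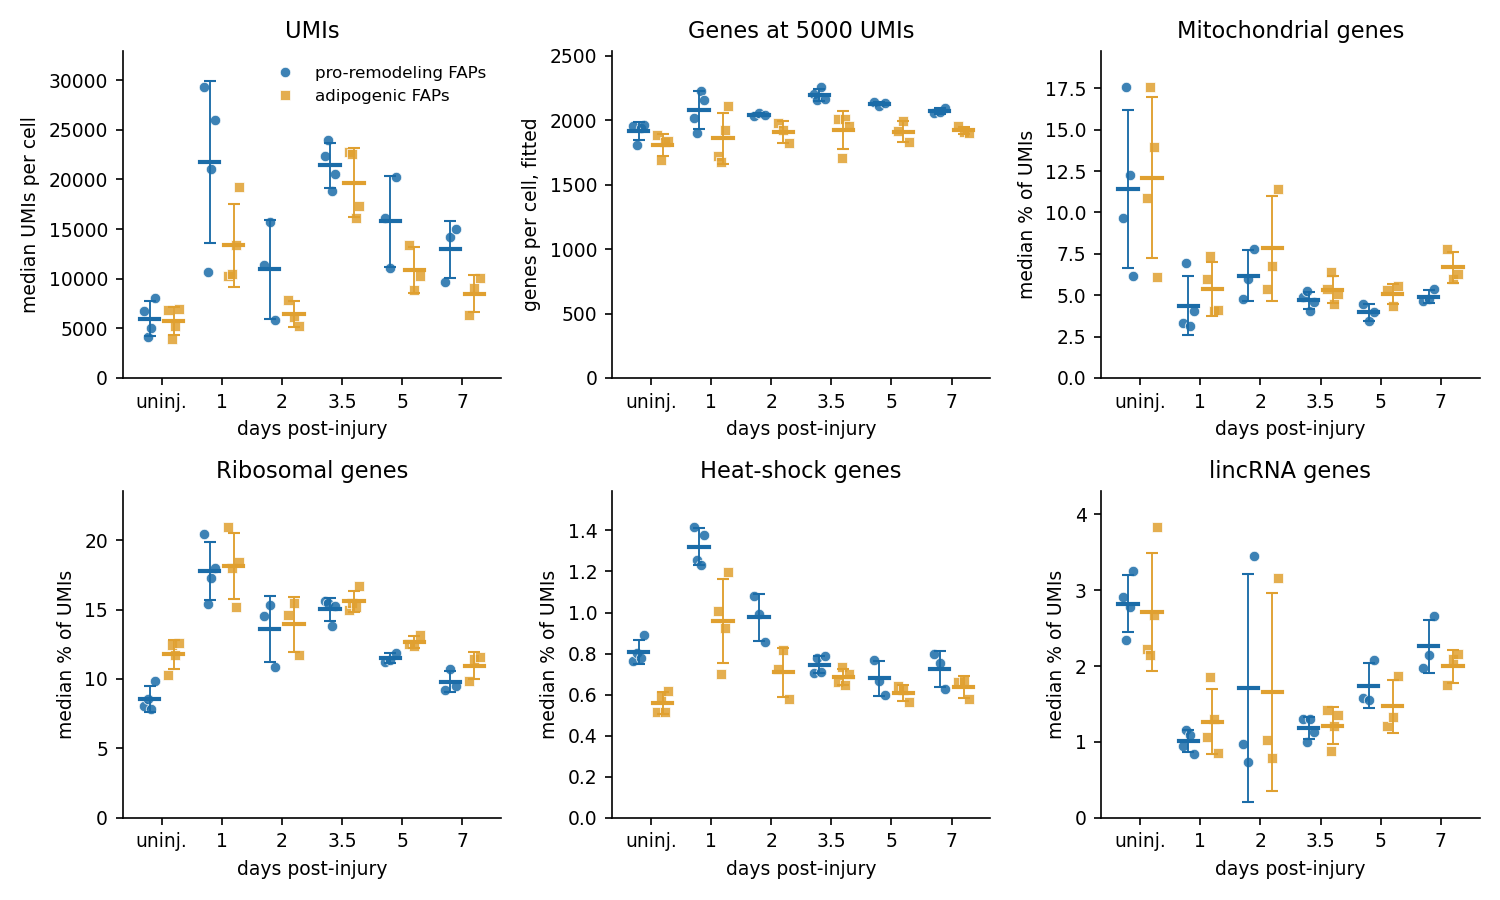
Readouts of pro-remodeling FAPs (circles) and adipogenic FAPs (squares) in each mouse by days post-injury: median UMIs per cell, genes at 5000 UMIs from a fitted line, and the median percent of UMIs from mitochondrial, ribosomal, heat-shock and lincRNA genes. Bars and whiskers are the mean and SD over mice. Heat-shock genes of pro-remodeling FAPs stood at 1.23 to 1.42% at 1 dpi and between 0.598 and 1.08% in all other mice.

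Cells within a mouse also varied. The ratio of the upper to the lower quartile of UMIs among pro-remodeling FAPs had a median of 1.78 over mice and ranged from 1.44 to 3.97. For heat-shock percent the same ratio was 1.50 in the median mouse, and for ribosomal percent it was 1.41. Single cells held between 1058 and 84304 UMIs and between 560 and 7860 genes. The study's methods state a minimum of 750 genes, below which lay 5 of the 6580 pro-remodeling FAPs (0.0760%) and 5631 of the 81242 other cells (6.93%).

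The label itself was then compared between integration methods, as the authors had named cell types separately after Harmony, BBKNN and Scanorama. An earlier label in the same tables, marked as given before filtering, named 6525 of the 6580 cells pro-remodeling FAPs (99.2%). How that label was made is not described in the sources used here, so it can not be taken as independent of the Harmony label. BBKNN gave the same name to 4899 (74.5%) and called 1665 adipogenic FAPs (25.3%). Scanorama gave it to 30 cells (0.456%), called 5744 adipogenic FAPs (87.3%) and 797 tenocytes (12.1%). Conversely, of 7721 cells that BBKNN called pro-remodeling FAPs, 63.5% were pro-remodeling and 26.4% adipogenic by Harmony.

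The BBKNN label split along the injury. In uninjured mice 0.752, 0.770, 1.12 and 0% of pro-remodeling FAPs kept their name, the last being 0 of 47 cells, which allows a share of up to 6.38%. At 1 dpi 80.8, 59.4, 97.0 and 91.5% kept it, and at 2 dpi 74.9, 85.2 and 28.6%. Apart from 2 dpi replicate C, whose 6 of 21 cells give an exact interval from 11.3 to 52.2%, a majority kept the name in each of these mice. The shares were 93.3, 96.5, 97.4 and 95.8% at 3.5 dpi. They were 93.4, 96.6 and 88.0% at 5 dpi and 88.7, 75.6 and 83.6% at 7 dpi. No injured mouse overlapped with any uninjured mouse, and the means were 83.9% (n = 17) and 0.660% ± 0.472 (SD, n = 4), with an exact permutation p of 0.000167, the smallest possible for 5985 assignments. Nearly all uninjured pro-remodeling FAPs were adipogenic FAPs by BBKNN, 99.1% ± 0.710 (SD, n = 4). The split was not particular to this type, because among cells that Harmony called adipogenic FAPs BBKNN named 1.41% ± 2.27 (SD, n = 4) pro-remodeling in uninjured mice and 89.1% ± 4.69 (SD, n = 4) at 3.5 dpi.

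Scanorama instead set the first days apart. It called 76.7, 56.2, 91.3 and 89.6% of pro-remodeling FAPs tenocytes at 1 dpi and 61.9, 65.9 and 14.3% at 2 dpi. In uninjured mice the share was 0, 0.308, 0 and 0%, where 0 of 133, 268 and 47 cells allow shares of up to 2.26, 1.12 and 6.38%. It was 1.54 to 4.96% at 3.5 dpi, 0.571 to 1.38% at 5 dpi and 0 to 0.877% at 7 dpi, the lowest being 0 of 958 cells, which allows up to 0.313%. The mice of the first 2 days thus lay above all other mice, at 65.1% ± 26.1 (SD, n = 7) against 0.714% ± 0.465 (SD, n = 6) at 5 and 7 dpi, with p = 0.00117 in an exact permutation test. The cells that Harmony called stem FAPs took the tenocyte name in 81.2% ± 24.6 (SD, n = 4) of cells at 1 dpi and in 1.68% ± 1.30 (SD, n = 3) at 5 dpi. Of all 2471 Scanorama tenocytes, 32.3% were pro-remodeling FAPs and 39.2% were tenocytes by Harmony.

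**Figure D4:**
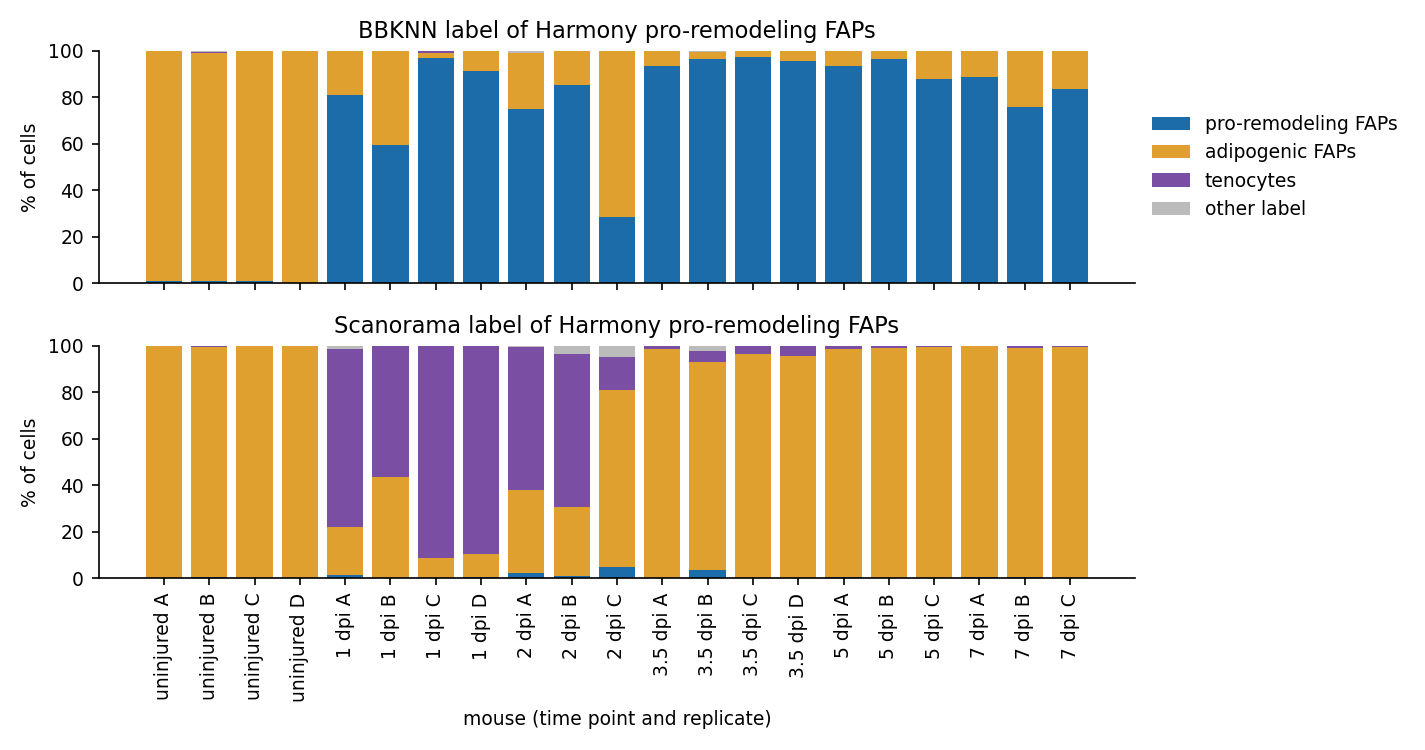
Names that BBKNN (top) and Scanorama (bottom) gave to the cells that Harmony called pro-remodeling FAPs, as a percent of those cells in each mouse. BBKNN kept the name for 0 to 1.12% of cells in uninjured mice and 28.6 to 97.4% in injured mice, and Scanorama used the tenocyte name for 14.3 to 91.3% at 1 and 2 dpi and at most 4.96% elsewhere.

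The labels chosen for counting therefore set what was counted. By BBKNN labels, pro-remodeling FAPs were 0.148% ± 0.0707 (SD, n = 4) of all cells in uninjured mice and 16.3% ± 6.16 (SD, n = 3) at 7 dpi, against 8.76% ± 6.85 (SD, n = 4) and 13.5% ± 4.47 (SD, n = 3) by Harmony labels. Without uninjured replicate B the Harmony mean of uninjured mice was 5.34%. With BBKNN labels the time course of the share of non-immune cells passed (adjusted p = 0.00368), as did that of the share of the 3 FAP types (adjusted p = 9.00e-05, both permutation tests of F), which the Harmony labels had not. Which of these namings reflects the state of the cells was not tested.

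Within injured mice the BBKNN names followed the same readouts that had changed with injury. In 16 injured mice with at least 5 pro-remodeling FAPs of each BBKNN name, those that kept the name held more UMIs in all 16, with a median ratio of 1.98 and a range from 1.16 to 5.17. Ribosomal genes were also higher in all 16 (median level 15.4 against 9.20%), and lincRNAs were lower in 15 (1.17 against 2.29%). Heat-shock genes were higher in 10 and lower in 6. These values are a description, because BBKNN's names came from the same transcripts, and the number of UMIs moved with the name throughout.

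**Figure D5:**
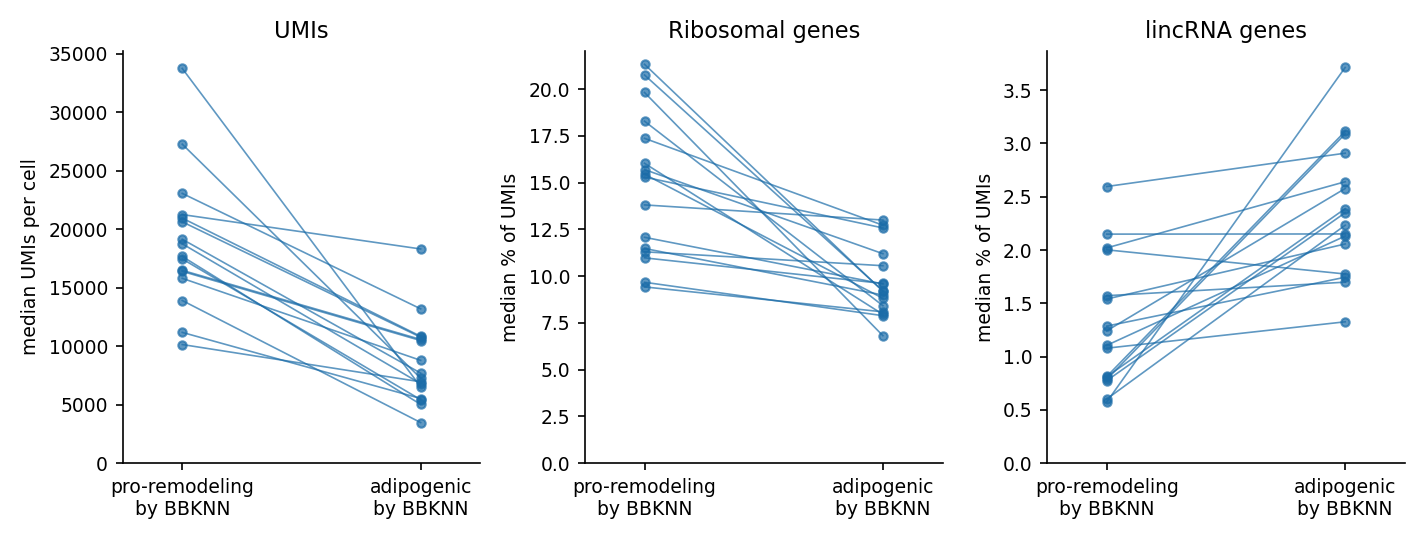
Median UMIs per cell and median percent of UMIs from ribosomal and lincRNA genes in Harmony pro-remodeling FAPs that BBKNN also called pro-remodeling or called adipogenic, with 1 line for each of 16 injured mice. UMIs and ribosomal genes were higher in the former in all 16 mice, by a median ratio of 1.98 for UMIs.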

How the data were processed

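Tables of 87822 cells from 21 samples were used. According to the study's methods and the submitters' processing notes, reads were aligned to mm10 with Cell Ranger 3.1.0, ambient RNA was subtracted with SoupX, cells were filtered with Seurat and doublets were removed with DoubletFinder. The notes name Seurat 3.1.5, and the methods name a later version. UMIs of each cell were deposited in the form of expected counts, which need not be whole after the ambient correction and are not normalized. Deposited counts of reads and called barcodes are Cell Ranger's, 1 value per sample. Each percent that the authors deposited is the part of a cell's UMIs from a gene set, whose gene lists were not used here, or Cell Ranger's saturation and reads in cells. The fraction values, SoupX contamination per sample (0.013 to 0.062) and DoubletFinder score per cell, are as deposited. Cell types are the authors' labels. No value of a single gene was used.

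The mouse was the unit. Each readout was the median over a mouse's pro-remodeling FAPs, in at least 10 cells. UMIs and genes were compared on the log2 scale and shares after an arcsine square root transform. Time courses were tested by permuting the F statistic with 100000 resamples (smallest p 1e-05), and 2 sets of mice by exact permutation over all assignments (two-sided, difference in means). Adjustment was by Benjamini-Hochberg over the types of a denominator (23, 13 or 3), the 11 readouts or the 5 time points, at 0.05. Differences between cell types of a mouse were tested for change over time only. Sets with a median of 0 (snoRNA, miRNA, snRNA) were tested on means, since their medians could not be tested. Python 3.11.15, numpy 2.4.6, pandas 2.3.3, scipy 1.17.1 and matplotlib 3.10.9 were used, and edgeR 4.0.16 (R 4.3.3) on numbers of cells as an alternative. The tests were run on simulated data first.

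Depth was 5602464 to 70730171 UMIs per sample. Intervals and limits from a count of 0 (3 cells) cover counting error only. Alternatives were other labels, transforms and denominators, tighter cell limits (1000 genes and 2000 UMIs at least, mitochondrial UMIs up to 15%), means, other cell minimums (20 or 5), cells that BBKNN labels alike, genes at 10000 UMIs, a block for the replicate letter, and omission of each mouse in turn. Cells of 5000 to 20000 UMIs, stem FAPs and capillary cells as comparison, the shares that other methods named adipogenic FAPs or tenocytes, and the tests of injured against uninjured (also without uninjured replicate B) and of late against early readouts were added after seeing the data. The cell type, its readouts and the lists of types were chosen with earlier results of these data known. Letters A to D were not taken to pair mice across times. The correlation of deviations had a median of -0.0228 (from -0.798 to 0.732) over 48 pairs of 1 letter. Over 135 pairs of different letters it was 0.0226 (from -0.808 to 0.872). With ranges this wide, these values cannot tell whether mice of 1 letter shared a collection day.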

Additional observations from a re-analysis of the deposited data

Results flagged for a closer look

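Single samples were compared with the rest of their group in 51 groups of 4 mice, and 7 stood apart by Dixon's test at the 95% level, which chance alone gives in about 1 of 20 groups. Uninjured replicate B accounted for 5 of them. Its pro-remodeling FAPs were 19.0% of all cells, 19.8% of non-immune cells and the source of 17.3% of UMIs, above the other 3 uninjured mice. They also held 1810 genes at 5000 UMIs, below the other 3. The fifth, a tenocyte share of 0.308% by Scanorama (2 of 649 cells) where the others were at 0, stands apart by construction, because the other 3 values are equal. The other mice, at 0 of 133, 268 and 47 cells, allow shares of up to 2.26, 1.12 and 6.38%, so that a difference was not detectable at this depth. The remaining values that stood apart were the share of the 3 FAP types of 47.7% in 1 dpi replicate C, below the rest, and 0.0792% of UMIs from antisense genes in 1 dpi replicate B, above the rest.

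The difference in heat-shock percent between pro-remodeling and adipogenic FAPs of the same mouse differed between time points (adjusted p = 0.00583, permutation test of F). It averaged 0.361 points at 1 dpi (n = 4), 0.248 in uninjured mice (n = 4) and 0.0607 at 3.5 dpi (n = 4), and pro-remodeling FAPs had the higher value in 21 of 21 mice. The same difference to stem FAPs did not pass (adjusted p = 0.182, permutation test of F).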

How the results depend on the processing

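Of 272 alternatives to the comparisons, 252 left direction and side of the threshold as they were, and of 684 for single readouts or labels 661 did. The time course of the share of all cells gave an adjusted p of 0.0865 with Scanorama labels and 0.0532 untransformed, and the late rise of 8.48 points lost its call as a centred log ratio (adjusted p = 0.0573). By BBKNN labels the time course passed for non-immune cells (0.00368) and for the 3 FAP types (9.00e-05), and the latter also as a centred log ratio (0.039) and with the tighter cell limits (0.0452). The late difference in the 3 FAP types turned to -4.80 points by Scanorama labels, which passed in the opposite direction (adjusted p = 0.0481, exact permutation test). Those labels counted a largely different and small set, as Scanorama named 119 cells pro-remodeling FAPs, 30 of which had that name by Harmony. Readout differences to adipogenic FAPs that changed over time numbered 4 by means, 2 with at least 20 cells, 7 with the tighter cell limits and 0 among cells that BBKNN labelled alike, where no uninjured mouse could enter and 12 mice remained. Without 1 mouse at a time, the time course of the 3 FAP types ranged from 0.0115 to 0.142, its late difference from -0.904 (without 2 dpi replicate C) to 3.55 points, the readout differences from 1 to 3 (3 without 1 dpi replicate A, 2 without 1 dpi replicate B or C), the integration methods whose label share changed from 1 to 2 (2 without 3.5 dpi replicate B) and the relations that passed from 0 to 1 (1 without 1 dpi replicate A). The causes were not tested. With a block for the replicate letter, whose link to collection days is not known, the late rise kept its call (adjusted p = 0.0266, exact permutation test). All 11 readouts still changed, and no call was lost or gained. The edgeR test on numbers of cells gave a late rise of 1.30 (log2, adjusted p = 0.0123) with TMM and 2.03 (adjusted p = 0.000138) without. Small numbers limit the values of 2 dpi replicate C (21 cells) and 1 dpi replicate B (32 cells), and the share of a type moves with every other type.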

Other observations

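The share of the 3 FAP types that were pro-remodeling was set against 3 measures of other cells in the same 21 mice, with p-values from permutations. With the share of M2 macrophages among myeloid cells, r was 0.0794 (Spearman's rho 0.0026, adjusted p = 0.732 for r and 0.993 for rho). With the share of neutrophils and inflammatory monocytes among myeloid cells, r was -0.144 (rho -0.134, adjusted p = 0.732 and 0.843). With the share of myoblasts and progenitors among these cells and muscle stem cells together, r was 0.444 (rho 0.403, adjusted p = 0.124 and 0.210), and 0.390 without the 2 mice farthest from the median. After the mean of each time point was removed, the 3 values of r were -0.166, 0.147 and -0.0571, so none of the 3 relations passed.

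Among the sparse gene sets, snoRNAs, which guide the chemical modification of ribosomal RNA, were detected in 34.2% of pro-remodeling FAPs. Their mean percent of UMIs changed over the 6 time points, from 0.00674 ± 0.00196 (SD, n = 4) in uninjured mice to 0.00266 ± 0.000599 (SD, n = 4) at 3.5 dpi (adjusted p = 0.0454 over the 3 sparse sets, permutation test of F). These percents lie near the floor, and the median cell of every uninjured mouse held no snoRNA. Median UMIs per cell averaged 5969 in uninjured mice and 21400 at 3.5 dpi. Whether this depth bears on the percent was not tested. The miRNA and snRNA sets did not pass (adjusted p = 0.704 each). Median DoubletFinder scores of pro-remodeling FAPs ranged from 0.0714 to 0.396 over mice, with all 3 mice at 7 dpi between 0.0968 and 0.143. Uninjured replicates A (0.133) and B (0.0714, the lowest of all) were similarly low.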
